A study of Mus musculus with 22 samples.

Results

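RNA polymerase II (PolII) occupancy was compared at 3 shared promoter regions, serving 6 protein-coding genes, that ranked higher after auxin-induced degradation of CTCF. The genes are Exd1 with 1500003O03Rik, Gys1 with Ruvbl2, and Dtx3l with Parp9. They are 3 of 15784 regions compared across libraries, 1103 of which held transcription start sites (TSSs) of 2 or more coding genes. The genes were chosen by this very rise with auxin in early-G1, mid-G1 and late-G1, so their auxin values at those stages are given as a description and carry no test.

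CTCF binds DNA through zinc fingers, and together with cohesin it anchors chromatin loops and separates neighbouring domains. A promoter shared by genes on opposite strands loads polymerase for both directions, and the polymerase usually pauses just downstream of each TSS before it enters the gene body. Exd1 encodes a cofactor of piRNA production known from the germ line. 1500003O03Rik, listed in RefSeq as a synonym of Chp1, encodes a calcineurin B homologous protein that binds sodium-proton exchangers. Gys1 encodes glycogen synthase of muscle and most other tissues, and Ruvbl2 an AAA+ ATPase of the INO80, TIP60 and R2TP complexes. Dtx3l encodes a Deltex E3 ubiquitin ligase that works as a complex with Parp9, an ADP-ribosyltransferase family member, and both genes are known to respond to interferon.

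The cells were G1E-ER4, a subline of the mouse GATA1-null proerythroblast line G1E, with both CTCF alleles fused to an auxin-inducible degron and mCherry and with a transduced TIR protein that allows auxin to trigger CTCF degradation. All groups shared this genotype and nocodazole arrest, but they were sorted through different gates. Treated cells were collected as mCherry-low and control cells as mCherry-high, prometaphase cells by DNA content and a mitotic antigen and G1 cells by their lower DNA content, so auxin and its gate cannot be told apart. The groups were prometaphase, early-G1, mid-G1 and late-G1 (0, 1, 2 and 4 h after release), each without auxin (control) or with auxin. Auxin was added for the last 4 h of the arrest and kept after release. There were 2 libraries per group except 3 per group in mid-G1. One line served throughout. The paper calls the replicates biological, but nothing in the labels says that they were separate cultures. P-values then measure the spread between these libraries only. CTCF protein was not measured in these files. Of 10 erythroid precursor genes, 9 had a peak at a TSS in all 14 post-mitotic libraries, and 8 of 8 markers of other tissues had none in any of them. Depth recovered from the peak lists was 4.51 to 13.3 reads per kb, with the shallowest library in mid-G1 control (replicate 1) and the deepest in late-G1 control (replicate 3).

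Positions of the 3 promoters are in mm9. The TSSs of Exd1 (119373363, minus strand) and 1500003O03Rik (119373433, plus strand) on chromosome 2 lie 70 bp apart and point away from each other. On chromosome 7 the TSS of Gys1 (52690214, plus strand) lies 135 bp from that of the shorter Ruvbl2 transcripts (52690079, minus strand), while the longest Ruvbl2 transcript starts inside Gys1 at 52693466. On chromosome 16 the outer TSSs of Dtx3l (35939237, minus strand) and Parp9 (35938556, plus strand) overlap by 681 bp and point towards each other. The merged PolII regions over them span 1639, 8609 and 2057 bp.

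The strongest PolII summit moved between named sites at 2 of the promoters, and the 300 bases around those sites are printed to show where the summits of control and treated libraries lay. Capitals mark matches, on either strand, to the motifs described after them. Sequences were read from the mouse reference genome in the build of the deposited files.
Exd1 side, strongest site in all 7 treated libraries (chr2:119372726-119373025, mm9, + strand): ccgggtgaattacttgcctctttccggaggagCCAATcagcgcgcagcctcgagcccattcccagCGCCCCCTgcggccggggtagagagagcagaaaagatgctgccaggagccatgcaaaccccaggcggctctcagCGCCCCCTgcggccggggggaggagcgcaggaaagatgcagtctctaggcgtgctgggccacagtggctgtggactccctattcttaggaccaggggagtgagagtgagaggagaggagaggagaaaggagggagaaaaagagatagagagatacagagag
1500003O03Rik side, strongest site in 3 control libraries (chr2:119373401-119373700, mm9, + strand): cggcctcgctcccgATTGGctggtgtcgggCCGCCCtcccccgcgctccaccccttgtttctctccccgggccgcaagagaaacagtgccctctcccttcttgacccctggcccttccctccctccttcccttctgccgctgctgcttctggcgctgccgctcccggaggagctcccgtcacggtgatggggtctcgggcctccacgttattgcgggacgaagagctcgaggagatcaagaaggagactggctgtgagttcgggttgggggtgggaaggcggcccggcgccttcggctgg
Ruvbl2 side, strongest site in 6 control libraries (chr7:52689472-52689771, mm9, + strand): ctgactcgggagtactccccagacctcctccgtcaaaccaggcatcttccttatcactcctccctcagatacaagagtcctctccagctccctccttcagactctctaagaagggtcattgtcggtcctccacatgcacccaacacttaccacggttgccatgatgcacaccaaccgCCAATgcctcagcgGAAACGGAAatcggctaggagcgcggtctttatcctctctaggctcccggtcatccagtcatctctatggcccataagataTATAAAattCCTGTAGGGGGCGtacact
Gys1 side, strongest site in all 7 treated libraries (chr7:52690113-52690412, mm9, + strand): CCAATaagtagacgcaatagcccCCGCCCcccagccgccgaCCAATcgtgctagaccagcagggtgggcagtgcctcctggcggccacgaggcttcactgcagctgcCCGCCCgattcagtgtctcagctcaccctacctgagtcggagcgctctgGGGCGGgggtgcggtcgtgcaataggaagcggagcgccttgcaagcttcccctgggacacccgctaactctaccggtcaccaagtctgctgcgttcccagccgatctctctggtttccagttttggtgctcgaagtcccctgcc
Parp9 intron, strongest site in all 14 post-mitotic libraries (chr16:35939844-35940143, mm9, + strand): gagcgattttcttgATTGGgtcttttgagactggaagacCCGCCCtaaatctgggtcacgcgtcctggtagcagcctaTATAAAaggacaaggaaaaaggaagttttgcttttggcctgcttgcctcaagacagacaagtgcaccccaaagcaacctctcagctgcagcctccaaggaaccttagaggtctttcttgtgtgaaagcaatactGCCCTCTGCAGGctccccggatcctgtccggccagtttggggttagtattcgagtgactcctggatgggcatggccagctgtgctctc

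Letters resembling a CTCF site stood at all 3 promoters, but at Exd1/1500003O03Rik only by a shorter motif added later. A CTCF core consensus, allowing 1 mismatch, matched the Parp9 intron window 62 bases downstream of the summit and the Ruvbl2-side window 131 bases downstream, and 4.50% of the windows of equal length at the 15784 regions held such a match. The Exd1-side window had no match to that consensus but held the shorter AGGGGGCG in 2 places on the minus strand, inside a perfect 21-base repeat whose copies start 74 bp apart. AGGGGGCG was added to the search after the windows were read, and 4.22% of all windows held it, while 0.855% held a repeat at least as long. The Ruvbl2-side window also held it, overlapping the consensus match there. These are letter matches, CTCF binding at them was not measured here, and no factor is read from them.

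The other motifs were mostly common ones. GC boxes, spelled GGGCGG, stood at the Gys1 TSS (3 copies), beside the 1500003O03Rik TSS and in the Parp9 window, and in 35.9% of all windows. The CCAAT box stood in all 5 printed windows and in 33.2% of all windows. The TATA box, spelled TATAAA, was found in the Ruvbl2-side window and, 72 bases upstream of the summit, in the Parp9 intron window, against 9.17% of all windows. An interferon regulatory factor motif, GAAANNGAA, was found in the Ruvbl2-side window only, against 6.73%. Over the whole merged regions it had 3 matches at Gys1/Ruvbl2 and 0 at Exd1/1500003O03Rik. Dtx3l/Parp9 had 1 match, at 35939059 between the outer TSSs and outside the printed window. No background share was set for whole regions. The 5 windows held no match to the ETS motif CCGGAAG, present in 12.0% of all windows, or to the NRF1 motif GCATGCGC, present in 2.77%. They held none to the YY1 motif AAGATGGCG, present in 2.76%, none to the STAT motif TTCNNNGAA, present in 7.64%, and none to the erythroid factor motif AGATAA, present in 11.1%. The GC content was 61.3% on the Exd1 side, 68.0% on the 1500003O03Rik side, 53.3% on the Ruvbl2 side, 64.0% on the Gys1 side and 52.3% in the Parp9 intron, against a median of 54.3% (quartiles 47.3% and 64.3%).

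Fold enrichment is the read pileup at a peak's summit over its local background, as the peak caller wrote it. Regions of each library were ordered by their highest fold enrichment, so that rank 1 is the strongest, and differences between groups were taken on the −log2 rank scale, where 1 unit means that the rank number fell to a proportion of 1 in 2. Over all regions, 0.393% ranked higher and 0.336% ranked lower with auxin by limma on the average over 3 stages, at a threshold of 0.05 after Benjamini-Hochberg adjustment. The 3 promoters are among the former by choice.

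The Exd1/1500003O03Rik promoter had the largest rise of any region tested. In early-G1 control cells it ranked 4150.5 and 3910, against 405 and 740.5 after auxin treatment. In mid-G1 the ranks were 7143.5, 7430.5 and 7185.5 in control and 885, 542.5 and 752.5 with auxin. In late-G1 they were 5025.5 and 8748.5 in control and 477 and 519 with auxin. Every treated library ranked it above every control library, by a wide gap (885 against 3910), as happened at 0.279% of all regions. Its fold enrichment was 10.3 to 24.2 (median 17.2) in the 7 control libraries and 39.2 to 55.4 (median 42.8) in the 7 treated ones. The summit pileup showed the same order in reads, 17 to 73 in control and 94 to 129 with auxin. On the −log2 rank scale the difference was 2.88 in early-G1, 3.35 in mid-G1 and 3.74 in late-G1.

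At Gys1/Ruvbl2 the gap in rank widened from stage to stage. In early-G1 the promoter ranked 3677 and 7200 in control and 2462 and 2196.5 with auxin. In mid-G1 the ranks were 7559.5, 4729 and 6781.5 in control and 524.5, 893 and 1395.5 with auxin. In late-G1 they were 12480.5 and 9219 in control and 497 and 880 with auxin. The groups did not overlap, but the margin was narrow, with 2462 the weakest treated rank and 3677 the best control rank, both in early-G1. The difference on the −log2 rank scale was 1.15, 2.84 and 4.02 in the successive stages. Fold enrichment was 8.58 to 25.9 (median 16.2) in control and 33.2 to 48.2 (median 34.3) with auxin. Summit pileups overlapped, at 16 to 114 reads in control and 74 to 113 with auxin. The 114 reads were in the deepest library (late-G1 control, replicate 3), at a fold enrichment of 16.2. In mid-G1 auxin replicate 2, 113 reads gave 45.9. Control pileups were 62 and 48 reads in early-G1 and 46 and 114 in late-G1, with no shared fall. How far local background set the late-G1 control ranks was not tested.

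Dtx3l/Parp9 gained least on the average over stages, though not in early-G1, and ranked highest of the 3 in mid-G1 and late-G1 control libraries. It ranked 6992 and 5254 in early-G1 control and 1795.5 and 2951.5 in early-G1 with auxin. In mid-G1 the ranks were 1260, 1408.5 and 1584 in control and 532.5, 549 and 368.5 with auxin. In late-G1 they were 1902 and 5870.5 in control and 352.5 and 422 with auxin. Treated libraries ranked above control within each stage, but not across stages, since early-G1 treated ranks fell behind mid-G1 control ranks. Summit pileups overlapped, at 44 to 110 reads in control and 98 to 151 with auxin. Within early-G1 they were 62 and 99 in control and 117 and 98 with auxin, while in mid-G1 and late-G1 they did not overlap. Fold enrichment was 16.7 to 36.4 (median 25.8) in control and 29.9 to 52.3 (median 47.0) with auxin, and the differences on the −log2 rank scale were 1.40, 1.57 and 3.11.

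**Figure D1:**
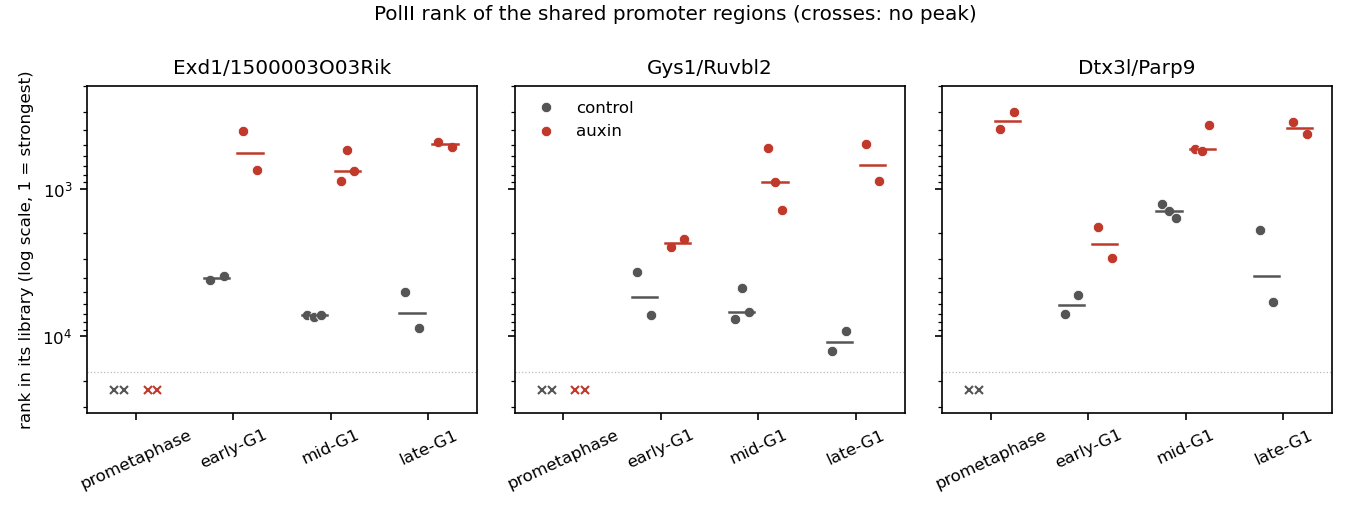
Rank of each shared promoter region by library (points) and group median (lines), on a log axis with rank 1 at the top, against stage; crosses mark libraries without a peak. Treated libraries (red) rank above control libraries (grey) in each post-mitotic stage, and only Dtx3l/Parp9 has prometaphase points, both treated.

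Of the 1103 tested regions holding TSSs of 2 or more coding genes, 8 were called higher with auxin (limma), against 62 of 15784 over all regions. Dtx3l/Parp9, the weakest of the promoters described here, rose by 2.03 on the −log2 rank scale and held place 5 among all regions. The next shared promoters in this order were Mapk14/Slc26a8 at 1.81 and Amigo3/Gmppb at 1.79.

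Within the Exd1/1500003O03Rik region the strongest site differed between libraries. In all 7 treated libraries the summit lay 455 to 493 bp inside Exd1, at 119372876 in the median, within an Exd1 exon and near the TSS of the shorter transcript Exd1-002 (119372930). Both early-G1 control libraries and mid-G1 control replicate 1 had their strongest summit at this site too. Mid-G1 control replicate 3 and both late-G1 control libraries had it instead 116 to 121 bp inside 1500003O03Rik, in an exon, and mid-G1 control replicate 2 had it 134 bp inside Exd1. The Exd1-side summit was thus the strongest in treated cells of every stage, but in no late-G1 control library. At this site, fold enrichment of a peak with its own summit was 10.3 to 24.2 in 3 control libraries and 39.2 to 55.4 in 7 treated libraries. No treated library had a separate summit on the 1500003O03Rik side, where the same broad peak of 1135 to 1563 bp covered the TSS. Because a listed peak carries only its highest point as summit, this does not show how strong the 1500003O03Rik side was.

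At Gys1/Ruvbl2 no treated library shared its strongest site with a control library. In 6 of 7 control libraries the strongest site was 442 to 463 bp inside Ruvbl2, in an exon, at 52689622 in the median. The exception was mid-G1 control replicate 1, the shallowest library, with its strongest summit 1589 bp inside Ruvbl2. In 7 of 7 treated libraries the strongest site was 33 to 52 bp downstream of the Gys1 TSS, at 52690263 in the median. Control peaks covered the Gys1 TSS as well, in 7 of 7 libraries, but none had a summit there. The Ruvbl2-side site had a peak with its own summit in 7 of 7 control libraries, at fold enrichments of 7.54 to 25.9. It had none in treated libraries (0 of 7), where a peak covered it without a summit of its own. A listed peak carries only its highest point as summit, so a peak spanning both sites could not have a summit at the weaker one. These counts therefore repeat which site was strongest, and signal at the weaker site was not measured.

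Dtx3l/Parp9 kept its summit. In 14 of 14 post-mitotic libraries, and in the 2 prometaphase libraries with a peak, it lay within the same 66 bp. The median, 35939994, is in an intron of Parp9, 1438 bp from the outer Parp9 TSS and upstream of the Dtx3l TSS. A weaker peak with its summit between the outer TSSs was called apart in 6 control and 4 treated libraries. Its fold enrichment was 9.22 to 16.9 (median 11.9) in control and 8.40 to 16.4 (median 11.7) with auxin, ranges that overlap almost fully. The stages were not matched, since the 4 treated libraries were early-G1 replicate 1 and all mid-G1 replicates, while the 6 control libraries included late-G1. In the late-G1 treated libraries, wide peaks of 1861 and 1998 bp covered both sites, so the TSS side could not be read apart there. The gain at this promoter was measured at the intronic site, where the ranges were 16.7 to 36.4 and 29.9 to 52.3.

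**Figure D2:**
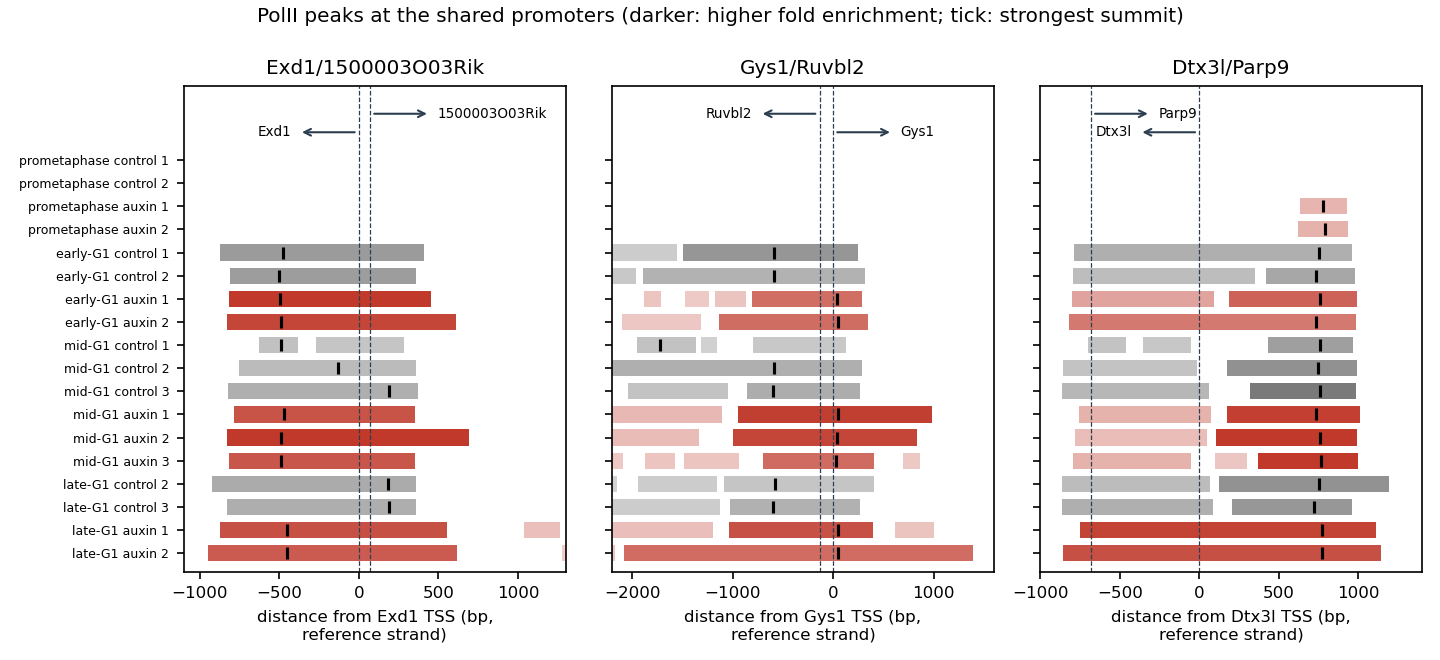
PolII peaks of the 18 libraries (bars, darker for higher fold enrichment, red for auxin) by distance in bp from the TSS of Exd1, Gys1 and Dtx3l on the reference strand, with arrows for the TSSs and ticks for each library's strongest summit. Ticks sit on the Exd1 side in all 7 treated libraries, jump from the Ruvbl2 side to the Gys1 TSS with auxin, and stay in the Parp9 intron at the Dtx3l promoter.

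Of the 6 gene bodies, that of Gys1 alone had more coverage in every treated than in every control library within each stage. Body coverage is the share of bases covered by peaks from 500 bp downstream of any coding TSS to the gene's end, leaving out bases shared with another coding gene. In early-G1 the Gys1 body of 18023 bp was covered at 6.17% and 9.74% in control and at 14.5% and 19.2% with auxin. In mid-G1 it was covered at 2.48%, 10.7% and 18.0% in control and at 29.7%, 42.8% and 23.0% with auxin. Late-G1 values were 30.0% and 17.2% in control, 48.1% and 41.9% with auxin. This pattern was found at 0.43% of 10458 coding gene bodies with any coverage. The average difference was 17.2 percentage points, with a spread between replicates of 6.82 (pooled SD), the 23rd largest rise of those bodies, whose median difference was −0.488. The same contrast chose the gene, and no test is drawn from this.

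The difference was also read along 3 stretches of Gys1. Bases shared with Ruvbl2 are left out, so the measured body starts beyond 52693466, where the longest Ruvbl2 transcript begins inside Gys1. Averaged over the 3 stages, coverage went from 10.2% to 25.6% over the first 6008 bp of the measured body. It went from 2.49% to 12.6% over the middle 6008 bp and from 29.3% to 55.4% over the last 6007 bp. Peaks with summits in the body numbered 1 to 2 in early-G1 control and 4 to 8 with auxin, 0 to 5 and 9 to 13 in mid-G1, and 6 to 9 and 12 to 18 in late-G1. The strongest of them had fold enrichments of 3.55 and 6.01 in early-G1 control and 8.52 and 7.07 with auxin. In late-G1 the order was reversed, at 14.5 and 12.8 in control and 8.34 and 7.50 with auxin. The last stretch and the end of the middle one are mixed with signal of Ftl1, the convergent ferritin light chain gene, whose region reaches 52704818, and part of the Gys1 end was covered in 3 of 4 prometaphase libraries. The middle stretch did not separate in early-G1, at 0% in both control libraries and 0 to 2.78% with auxin. The first stretch, away from Ftl1, separated in each stage, from 5.51 to 5.63% against 8.52 to 18.8% in early-G1 to 14.5 to 15.7% against 32.5 to 40.4% in late-G1.

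Ruvbl2, on the other side of that promoter, had no such gain. Its body of 12268 bp was covered at 36.9% and 44.4% in early-G1 control and at 23.2% and 24.0% with auxin. In mid-G1 coverage was 13.6%, 38.5% and 41.8% in control and 34.8%, 34.1% and 21.4% with auxin. Late-G1 values were 22.7% and 74.7% in control, 29.2% and 23.9% with auxin. The groups overlapped in mid-G1 and late-G1, and the average difference of −13.5 percentage points was smaller than the spread between replicates of 16.8. Without late-G1 control replicate 3, the deepest library, it was −4.80. Depth spanned 4.51 to 13.3 reads per kb in control and 7.54 to 9.28 with auxin, and after regression on depth the differences were −5.42 at Ruvbl2 and 17.9 at Gys1.

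**Figure D3:**
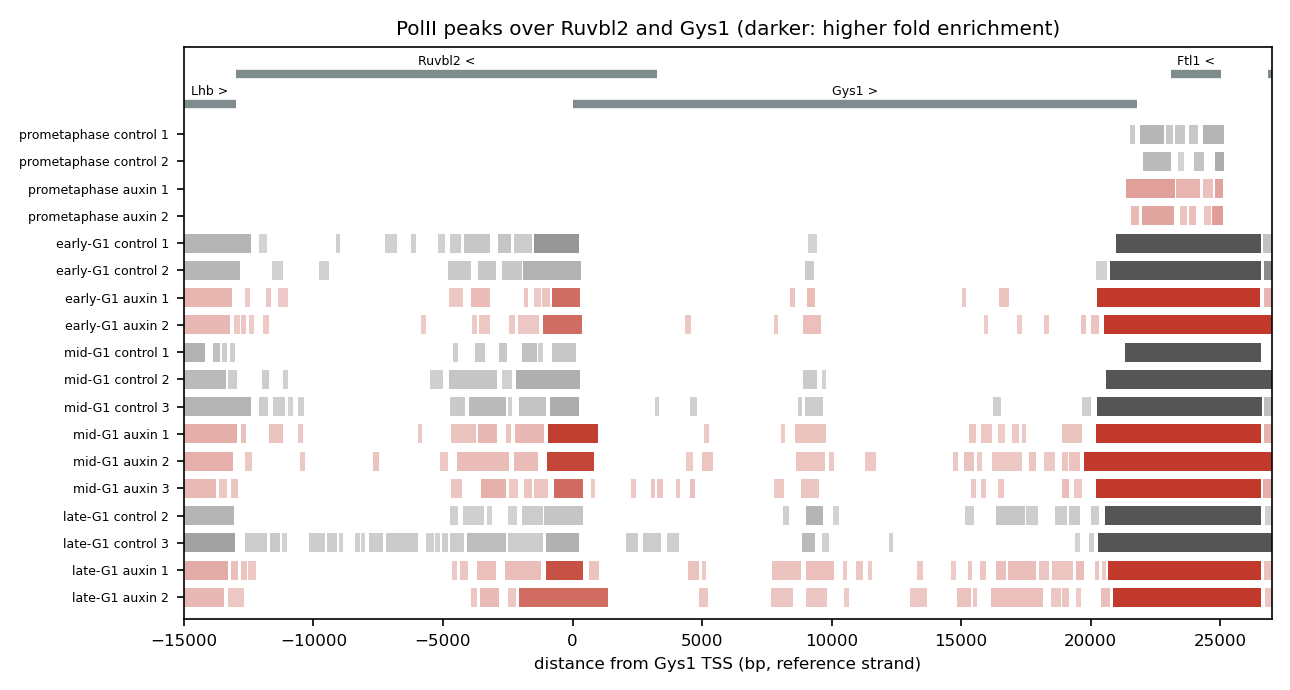
PolII peaks of the 18 libraries over Ruvbl2 and Gys1 (bars, darker for higher fold enrichment, red for auxin) by distance in bp from the Gys1 TSS on the reference strand, with coding genes on top. Peaks in the Gys1 body are denser in treated mid-G1 and late-G1 libraries than in their controls, and the Ftl1 signal at the right is present in every library.

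Peaks covered a small share of the other 4 bodies in either condition. The Exd1 body (29188 bp) was uncovered in 7 of 7 control libraries and covered in 2 of 7 treated libraries, by at most 0.778%. The Dtx3l body (11459 bp) was likewise uncovered in all control libraries and covered in 2 treated ones, by at most 2.29%. Parp9 (32954 bp) was covered at 1.38 to 2.90% in control and 1.46 to 3.15% with auxin, most of it in the part nearest the promoter, which holds the intronic site. Coverage of 1500003O03Rik (37805 bp) was 1.58% and 4.67% in early-G1 control, 3.66% and 4.46% in early-G1 with auxin, and at most 1.94% in any later library. Its difference of 0.439 percentage points was below the spread of 1.07 between replicates. Beside the strong Exd1-side summit, coverage above the peak caller's threshold was thus near 0 along Exd1 itself.

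**Figure D4:**
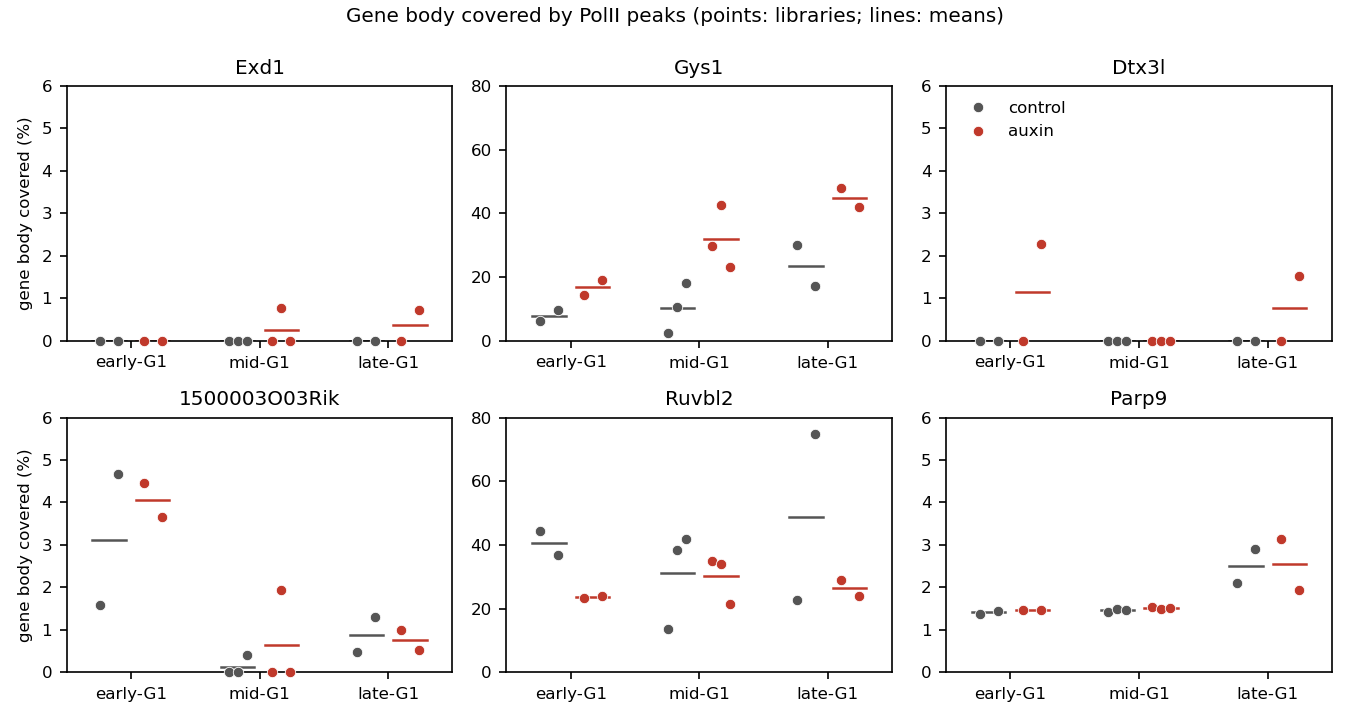
Share of each gene body covered by PolII peaks (%) in early-G1, mid-G1 and late-G1, with 1 point per library (grey control, red auxin) and lines for group means; Gys1 and Ruvbl2 have a wider axis (0 to 80) than the other genes (0 to 6). Gys1 is the gene whose treated points lie above control in each stage.

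Stage was a comparison the choice of genes did not use. Averaged over both conditions, the Dtx3l/Parp9 promoter region ranked higher in late-G1 than in early-G1 by 1.72 ± 0.31 (SE) on the −log2 rank scale (limma adjusted p = 0.00255), as 7.47% of all regions did. Its rank was that of the Parp9 intronic site. The rise was 0.86 in control and 2.58 with auxin. It was not called with the summit pileup in place of the rank (0.24 on its log2 scale, adjusted p = 0.353) or with a normal score of the rank (adjusted p = 0.198). The difference was −0.29 ± 0.25 at Exd1/1500003O03Rik (adjusted p = 0.465) and 0.38 ± 0.32 at Gys1/Ruvbl2 (adjusted p = 0.456), neither past the threshold. On the rank scale, Gys1/Ruvbl2 control fell by 1.06 between these stages while treated rose by 1.81. Control summit pileups there had no shared fall, at 62 and 48 reads in early-G1 and 46 and 114 in late-G1.

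Whether the auxin change differed between stages was tested with limma's F test. The unadjusted p was 0.00170 at Gys1/Ruvbl2, 0.0238 at Dtx3l/Parp9 and 0.267 at Exd1/1500003O03Rik, with adjusted p-values of 0.836, 0.972 and 0.991. No region in the series passed (0.0%), although 783 of 15784 had an unadjusted p under 0.05, so the widening from early-G1 to late-G1 did not pass the adjusted threshold.

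Prometaphase libraries took no part in choosing the genes. The Exd1/1500003O03Rik and Gys1/Ruvbl2 promoters had no peak in any of the 4 prometaphase lists. Dtx3l/Parp9 had a peak in both treated libraries and in neither control library. The peak was 298 and 316 bp wide, with summit pileups of 19 and 22 reads, fold enrichments of 11.0 and 11.8 and ranks of 394.5 of 2050 and 300.5 of 1480 regions, and it sat at the Parp9 intronic site. With 2 against 2 libraries the exact permutation p (two-sided) is 0.333, the smallest this design allows. Of 3683 regions found in any prometaphase list, 1.66% had a peak in both treated and in no control library, and 197 had the reverse pattern. Absence from a list means that no peak passed the threshold at a depth of 4.94 to 5.96 reads per kb.

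Neighbouring genes were compared in the same fit. Within 50 kb of the members' TSSs stood 9 other coding genes, 4 of which had a region that could be tested, in 3 regions. By limma 0 of them were called, and 1 had an unadjusted p under 0.05, as did 1725 of all 15784 regions. Over all regions 0.393% were called higher and 0.336% lower, so 0 of 3 regions says little about the neighbours. Lhb, a glycoprotein hormone subunit gene whose region also covers the end of Ruvbl2, went from a mean rank of 6988 ± 1612 to 10428 ± 1603 (SD, n = 7 each), a difference of −0.57 ± 0.20 (SE, adjusted p = 0.267). Ftl1 and Bax, a promoter of apoptosis, shared 1 wide region with a difference of 0.12 ± 0.16 (adjusted p = 0.831), and its mean rank was 170 in control and 154 with auxin. Kpna1, an importin alpha gene 44164 bp from the Dtx3l TSS, had a difference of 0.10 ± 0.22 (adjusted p = 0.908).

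Snrnp70, Kcna7 and Gm10237 had no peak at a TSS in the post-mitotic libraries, Ntf5 had one in 3 and Tulp2 in 3, too few for a test. No coding gene lies within 50 kb of the Exd1 pair. The lincRNA 1700020I14Rik, 34785 bp away and outside the coding rule, had a difference of 0.14 ± 0.16 (adjusted p = 0.808). Of all 11 other regions tested within 50 kb of the 3 promoters, 0 were called, with differences from −0.67 to 0.39.

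Genes related to the members by function were compared in the same fit. In 6 lists of 135 genes that leave out the members, 84 had a tested TSS region, 0 of them called in either direction and 4 with an unadjusted p under 0.05 (limma), against 1725 of 15784 regions with such a p and 62 called higher and 53 lower over all regions. With so few calls in the whole series, 0 of 84 sets the lists apart from no other regions. The median difference over the lists was 0.02 against −0.01 over all regions tested.

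Among genes of glycogen metabolism, 15 of 24 were tested, with a median of 0.01. The furthest were Gaa, lysosomal alpha-glucosidase, at 0.79 ± 0.24 (SE, adjusted p = 0.206), and Pygm, muscle glycogen phosphorylase, at −0.38 ± 0.26 (adjusted p = 0.636). Of the INO80, TIP60, SRCAP and R2TP complexes, 32 of 32 genes were tested. Ep400, the ATPase of the TIP60 complex, came closest to a call at 1.02 ± 0.24 (adjusted p = 0.0663), with a mean rank of 638 in control and 334 with auxin, and passed without late-G1 control replicate 2 (adjusted p = 0.0464) or mid-G1 auxin replicate 1 (adjusted p = 0.0470). The next was Actr8, an actin-related INO80 subunit, at 0.41 ± 0.19 (adjusted p = 0.459). Ruvbl1, the partner ATPase of Ruvbl2, had −0.21 ± 0.19 (adjusted p = 0.745).

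In the PARP and Deltex families, 16 of 22 genes were tested, with Parp11 at 0.46 ± 0.25 (adjusted p = 0.534) and Tiparp at −0.27 ± 0.21 (adjusted p = 0.689) the furthest. Parp14, which like Parp9 is a macrodomain PARP and lies on the same chromosome, had 0.05 ± 0.17 (adjusted p = 0.959). Of interferon response genes, 13 of 25 were tested, with a median of 0.15. Irf7, a transcription factor of that response, stood at 0.46 ± 0.19 (adjusted p = 0.374) and B2m, the light chain of MHC class I, at 0.40 ± 0.26 (adjusted p = 0.617). Without late-G1 control replicate 2, B2m passed at 0.76 (adjusted p = 0.0440), and without late-G1 control replicate 3 Gaa passed at 1.04 (adjusted p = 0.0419).

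Among sodium-proton exchangers and relatives of CHP, 8 of 17 were tested. Stk17b, a kinase known to bind CHP, had 0.73 ± 0.27 (adjusted p = 0.305). None of the 15 piRNA pathway genes had a testable region, and 1 of them had a peak at a TSS in any library.

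The regions whose −log2 ranks followed each promoter most closely over the 14 libraries were not its neighbours. For Exd1/1500003O03Rik they were a region 20655 bp from Mylk3 (Pearson r = 0.920), the Arl2 promoter (r = 0.918) and a region 8574 bp from Mrps27 (r = 0.914). For Gys1/Ruvbl2 they were a region 18916 bp from Car1 (r = 0.917), the Iqgap2 promoter (r = 0.896) and a region 22262 bp from Ptma (r = 0.893). For Dtx3l/Parp9 they were the same region near Ptma (r = 0.923), the shared promoter of Amigo3 and Gmppb (r = 0.918) and a region 6902 bp from Srxn1 (r = 0.898). Between the 3 promoters r was 0.858 for Exd1 with Gys1, 0.744 for Gys1 with Dtx3l and 0.616 for Exd1 with Dtx3l. All these correlations share the libraries and the auxin contrast by which the genes were selected.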

How the data were processed

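PolII ChIP-seq peak lists were read for 18 libraries. The 4 input samples have no peak list and were not used here. The authors aligned reads to mm9 with Bowtie2 2.2.9, filtered them with SAMtools 0.1.19 and bedtools 2.27.1, and called peaks per library with MACS2 2.1.0 at q = 0.01. The deposited lists give, per peak, a fold enrichment ratio, p- and q-values as −log10, and a display score, for peaks only. Whole summit pileups were recovered from the ratio and −log10 p in 100% of peaks (within 0.02 reads of a whole number, plus a small relative allowance), which gave the depth.

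Peaks overlapping by at least 1 bp across libraries were merged into 169903 regions. The 15784 with a peak in all 14 post-mitotic libraries were ranked in each library by their highest ratio among that library's regions, and −log2 rank was fitted with limma 3.58.1 in R 4.3.3 over 6 group means, without a block. Genes come from GENCODE vM1 on NCBIM37 (mm9). Coverage of gene bodies was set for 19348 coding genes longer than 1 kb with at least 500 bp left.

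The members and the gene lists were chosen with earlier results of these data known. Named were the 6 members, every neighbour within 50 kb, list genes called or the 2 furthest per list (1 of which is not reported here), and the 3 regions most like each promoter. Ruvbl1, Parp14 and the short CTCF motif were named after their values were seen. Alternatives were a normal score, the summit pileup, peaks joined within 1 kb, −log10 q of at least 5, a replicate block and leaving out each library, and for bodies a start at 1 kb, a regression on depth and percentiles.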

Additional observations from a re-analysis of the deposited data

How the results depend on the processing

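The lists hold peaks only, so a promoter or body without one is below the calling threshold at that depth. The auxin difference kept its direction at the 3 promoters under every alternative. Here Exd1, Gys1 and Dtx3l stand for their promoters, in that order. With a normal score of the rank it was 1.06, 0.92 and 0.58, and with the centred log2 summit pileup 1.33, 0.90 and 0.74, each on its own scale. Late-G1 against early-G1, the Gys1 difference reversed to −0.065 with the normal score, and the Dtx3l difference was no longer called with the normal score (0.43) or the pileup (0.24). The cause was not tested.

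Leaving out each library gave auxin differences of 3.18 to 3.47, 2.51 to 2.83 and 1.76 to 2.30, and stage differences of −0.51 to −0.073, 0.13 to 0.62 and 1.31 to 2.12. Adjusted p-values (limma) of the test of auxin by stage stayed above 0.05, with lowest values of 0.562, 0.216 and 0.0771. Among list genes, 0 to 2 were called higher when a library was left out.

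As a percentile of coding genes in its library, body coverage changed by 8.58 at Exd1, 1.87 at 1500003O03Rik, 9.31 at Gys1, −2.13 at Ruvbl2, 12.1 at Dtx3l and 0.0973 at Parp9, where the Exd1 and Dtx3l values rest on peaks in 2 treated libraries each. Leaving out each library gave 15.1 to 19.4 percentage points at Gys1 −22.1 to −4.80 at Ruvbl2, 0.0864 to 0.331 at Exd1 and 0.255 to 1.02 at Dtx3l, with 1500003O03Rik (−0.0757 to 0.954) and Parp9 (−0.148 to 0.253) on both sides of 0.

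Over all regions, 62 higher and 53 lower calls with auxin (53.9% higher) became 1 and 2 with the normal score (33.3% higher) and 101 and 87 with the pileup. They ranged over 31 to 125 and 24 to 91 when a library was left out. The 1179 regions higher in late-G1 became 24 with the normal score and 666 with peaks joined. Without late-G1 control replicate 2, 44 regions passed the test of auxin by stage, against 0.

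Replicate numbers were not treated as pairs: same-number correlations of deviations were 0.0144 in early-G1, 0.102 to 0.293 in mid-G1, where auxin replicate 1 correlated better with control replicate 2 (0.108) than with its own number (0.102), and 0.0110 in late-G1. With the replicate block, calls with auxin were 86 and 73, the Dtx3l stage difference was 1.81, and no other call at the promoters, neighbours or lists changed.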
